A study of Mus musculus with 6 samples.

Results

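Smooth muscle type contractile genes encode the actin, myosin and actin-binding proteins that give smooth muscle its slow, sustained contraction, and bone-forming and connective tissue cells also use many of them. The 10 genes Acta2, Tagln, Cnn1, Myl9, Tpm1, Tpm2, Lmod1, Smtn, Myh11 and Cald1 were taken by name, and an array feature was assigned to a gene where its RefSeq transcript identifier belongs to that gene. For 9 of the 10 a feature was found, 1 feature of 9 probes each, out of 17298 named genes and 42586 features in all. Myl9, a regulatory light chain of myosin, had no feature named through a RefSeq transcript and has no value here.

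The values come from MC3T3-E1 cells, a clonal mouse pre-osteoblast line from newborn calvaria, so neither group models smooth muscle itself. Differentiated cells (3 arrays) had grown for 15 days in medium with ascorbic acid at 50 µg/mL and glycerol-2-phosphate at 10 mM, and undifferentiated cells (3 arrays) without these additions. The labels give no time in culture for undifferentiated cells, so the additions and time in culture cannot be told apart. Cells of both groups received 100 nM 1,25(OH)2D3, the hormonal form of vitamin D, for 24 h, and were used at passages 5 to 12. The labels name the arrays as biological triplicates. No culture without the hormone was analysed here, so each difference is between differentiation states under the hormone.

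All values are log2 of an expression intensity, a brightness scale on which a difference of 1 is a doubling. The median intensity lay between 793 and 835 on the 6 arrays, and the control feature of random probes, which marks background, read 96.3 to 112. No contractile gene was at or below that control on any array. Among the undifferentiated arrays, replicate 3 was unlike the other two and is given separately. Its array number begins with the same digits as those of the differentiated arrays, whereas those of replicates 1 and 2 begin with other digits. The image names carry a single number for each group, which the sources used here do not explain. Whatever that number marks cannot be told apart from group. A gene is called at an adjusted p under 0.05 in limma. Of 10 measured osteoblast markers, 4 were called higher in differentiated cells and none lower, where 8.47% and 10.8% of all named genes were. Col1a1, the main collagen of bone, read 15.93 to 15.95 in differentiated and 15.76 to 15.92 in undifferentiated cells. Its mean of 15.90 was the highest of all named genes and lay near the top of the scale. Alpl, the phosphatase that starts mineralization, was 13.0-fold higher in differentiated cells (limma adjusted p = 1.16e-07). Pth1r and Bglap, also called higher, differed by 1.32 and 1.10 (limma adjusted p = 0.000119 and 0.00346). Among the markers not called, Runx2 differed by 0.09, Sparc by 0.08 and Spp1 by -0.32 (limma adjusted p = 0.658, 0.674 and 0.133). Ibsp, also not called, read 6.53 to 7.19 on the 6 arrays, near the random-probe control.

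In smooth muscle, contraction starts when calcium and calmodulin switch on myosin light chain kinase, which phosphorylates the regulatory light chain and lets myosin pull on actin. Tropomyosin, calponin and caldesmon lie along the actin filament and modulate that pull, while transgelin, smoothelin and leiomodin bind or build the filaments. Many of these genes are switched on by serum response factor (SRF), which binds a short DNA element called the CArG box together with the cofactor myocardin or the myocardin-related factors MRTF-A and MRTF-B. The TEAD factors, partners of the mechanically regulated coactivators YAP and TAZ, bind a second element, CATTCC.

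The DNA just before the start of 4 of these genes is shown because it holds, or lacks, the elements through which this gene programme is known to be controlled, and because the 4 genes include the largest rise, both falls and a widely used marker of the programme. They were picked, and the looser form of the CArG box was added, after the calls and a search with the strict form had been seen. Sequences are from RefSeq (GRCm38.p6), end at the base before the transcript start and read 5′ to 3′ on the gene's strand. Capitals mark a match to CATTCC or its reverse complement GGAATG, or to a CArG box that may hold up to 1 G or C among its inner bases.
Acta2, chr19:34255374-34255533, minus strand: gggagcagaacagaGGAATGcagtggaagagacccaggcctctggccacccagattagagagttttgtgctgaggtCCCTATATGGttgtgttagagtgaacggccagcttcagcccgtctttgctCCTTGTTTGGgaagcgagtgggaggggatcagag
Smtn, chr11:3539293-3539542, minus strand: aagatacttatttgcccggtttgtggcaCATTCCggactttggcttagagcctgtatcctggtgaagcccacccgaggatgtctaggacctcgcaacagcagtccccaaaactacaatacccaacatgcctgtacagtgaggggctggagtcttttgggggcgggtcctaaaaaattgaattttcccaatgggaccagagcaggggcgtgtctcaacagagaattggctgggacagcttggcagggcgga
Lmod1, chr1:135324563-135324812, plus strand: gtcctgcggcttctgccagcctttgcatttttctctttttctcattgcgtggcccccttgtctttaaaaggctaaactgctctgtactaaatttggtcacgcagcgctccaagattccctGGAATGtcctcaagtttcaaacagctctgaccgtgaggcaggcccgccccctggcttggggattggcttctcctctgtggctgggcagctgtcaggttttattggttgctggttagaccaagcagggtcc
Tpm2, chr4:43523555-43523804, minus strand: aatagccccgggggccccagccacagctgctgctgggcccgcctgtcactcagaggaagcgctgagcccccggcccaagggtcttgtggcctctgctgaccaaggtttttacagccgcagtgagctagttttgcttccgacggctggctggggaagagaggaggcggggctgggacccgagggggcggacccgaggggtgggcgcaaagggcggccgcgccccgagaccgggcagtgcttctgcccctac

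The RefSeq table held windows for 8 of the 10 genes, with 2 windows for Cald1, so that 9 windows of 250 bases were searched on both strands. Tagln and Myh11 were not in it. A CArG box with only A and T inside occurred in 1 of the 9 windows, that of Myl9, against 1.47% of all 32851 windows of the same length. With up to 1 inner G or C it occurred in Acta2 and Myl9, against 8.59% of all windows. In Acta2 the matches CCCTATATGG and CCTTGTTTGG end 75 and 25 bases before the start. CATTCC on either strand was found in 5 of the 9 windows, in Acta2, Cald1, Lmod1, Smtn and Tpm1, against 12.6% of all windows. The Tpm2 window held neither element. A match describes these letters only, and windows without one may hold an element farther away.

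The comparison of differentiated with undifferentiated cells asked how the contractile genes differ between the 2 states of the lineage, and they did not move as a block. Smtn and Tagln were higher in differentiated cells, Tpm2 and Lmod1 were lower, and Acta2, Cnn1, Tpm1, Myh11 and Cald1 did not pass the test. Thus 2 of the 9 measured genes were called higher, where 8.47% of all named genes were, and 2 were called lower, where 10.8% were. Calls are at an adjusted p under 0.05 in limma, adjusted over all features. The median log2 difference of the 9 genes was -0.15, beside 0.08 for all named genes. In bulk RNA, fewer cells with a transcript and less transcript per cell cannot be told apart.

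**Figure D1:**
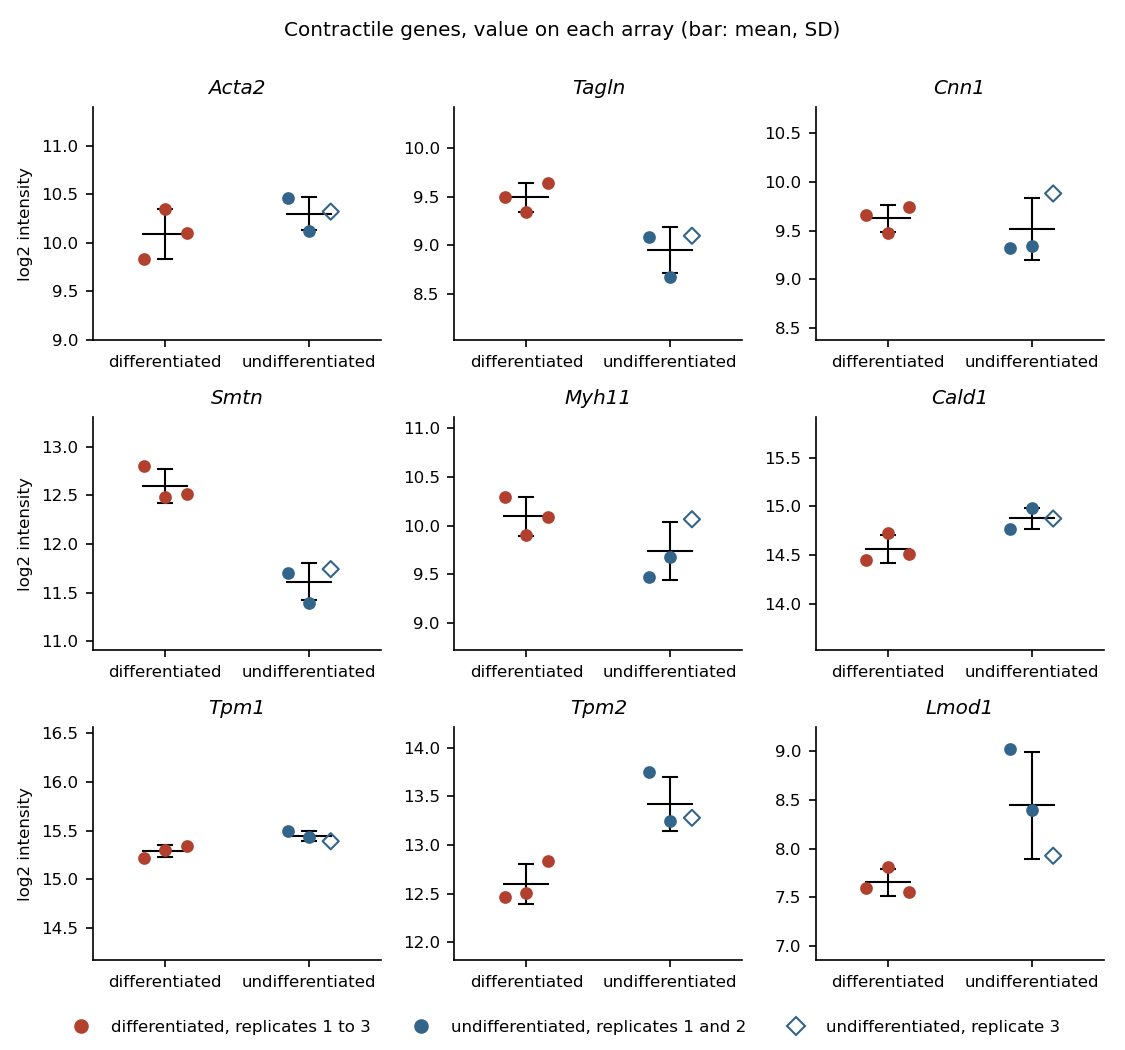
Log2 intensity of each measured contractile gene on every array (y axis, each panel spanning the same log2 range around its own mean), differentiated cells left and undifferentiated cells right, with group mean and SD (n = 3 each) as bars and undifferentiated replicate 3 as an open diamond. The groups are apart for Smtn, Tagln, Tpm2 and Lmod1, narrowly apart for Tpm1 and Cald1, and overlap for Acta2, Cnn1 and Myh11.

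Smtn encodes smoothelin, an actin-binding protein of contractile smooth muscle cells, and had the largest difference among the 9 genes over all 6 arrays. Without undifferentiated replicate 3, Smtn (1.05) and Lmod1 (-1.05) differed by the same amount. It read 12.80, 12.48 and 12.52 in differentiated cells, against 11.70, 11.40 and 11.74 in undifferentiated cells. The lowest differentiated array lay well above the highest undifferentiated array, and undifferentiated replicate 3 lay with the rest of its group. The log2 difference was 0.99 ± 0.15 (SE), a 1.98-fold rise (adjusted p = 0.00151), and the 95% interval ran from 0.66 to 1.32. It passed in all 19 alternative settings, with differences from 0.86 to 1.10. Smtn has 11 RefSeq transcripts, among them long and short forms, and the single feature does not tell which form rose.

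Tagln, which encodes transgelin (SM22α), an actin-bundling protein and an early marker of smooth muscle, rose by less. Its values were 9.50, 9.34 and 9.64 in differentiated cells, against 9.08, 8.68 and 9.10 in undifferentiated cells. The groups did not overlap, but the gap between the nearest arrays was small. The log2 difference was 0.54 ± 0.16 (SE), or 1.45-fold (adjusted p = 0.0348). The call was lost without any of the 3 differentiated replicates (adjusted p = 0.117, 0.0545 and 0.142 without replicates 1, 2 and 3) and without undifferentiated replicate 2 (0.146). It was also lost under quantile normalization (0.0582), cyclic loess (0.0902) and array weights (0.0571). Without undifferentiated replicate 3 it held, at 0.61 (adjusted p = 0.00598, in a range of 0.000155 to 0.204 over all settings).

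Cnn1 encodes calponin 1, which binds actin and slows myosin, and it read 9.66, 9.47 and 9.74 in differentiated cells, against 9.32, 9.34 and 9.88 in undifferentiated cells. The highest value of all belonged to undifferentiated replicate 3, which lay 0.55 above the mean of replicates 1 and 2. The difference over all arrays was 0.11, with a 95% interval from -0.27 to 0.48 (adjusted p = 0.672). It was 0.29 without replicate 3 (adjusted p = 0.0883) and -0.26 when that replicate was the only undifferentiated array compared (adjusted p = 0.355). In each such comparison with replicate 3 alone, that group is 1 array with no spread of its own, which is assumed to vary like the other arrays, so these p-values carry little weight.

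Myh11, the heavy chain of smooth muscle myosin and the marker most restricted to smooth muscle, depended on the same array. It read 10.30, 9.90 and 10.09 in differentiated cells and 9.48, 9.68 and 10.07 in undifferentiated cells. Undifferentiated replicate 3 fell among the differentiated arrays, while replicates 1 and 2 lay below all of them. The difference was 0.35, with a 95% interval from -0.03 to 0.74 (adjusted p = 0.163). Without replicate 3 it was 0.52 and passed (adjusted p = 0.0117), and against replicate 3 alone it was 0.03 (adjusted p = 0.947).

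Acta2, which encodes smooth muscle α-actin and is the usual marker of contractile and myofibroblast-like cells, showed no call in any setting. It read 9.83, 10.35 and 10.10 in differentiated cells, against 10.46, 10.12 and 10.32 in undifferentiated cells. The groups overlapped, and undifferentiated replicate 3 lay between replicates 1 and 2. The difference was -0.21, with a 95% interval from -0.57 to 0.15 (adjusted p = 0.37), so a rise larger than 0.15 on the log2 scale lies outside that interval. Over all settings the difference ran from -0.34 to -0.02. Actin genes are close copies of each other in their coding sequence, and the sources used here do not give the probe positions, so other actins may add to the Acta2 feature and its value is uncertain.

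The tropomyosins coil along actin filaments and decide which myosins and other proteins can bind. Tpm2 (β-tropomyosin) read 12.47, 12.50 and 12.84 in differentiated cells, against 13.75, 13.25 and 13.28 in undifferentiated cells. Every differentiated array lay below every undifferentiated one. Tpm2 fell by 0.82 ± 0.17 (SE) on the log2 scale, a 1.77-fold decrease (adjusted p = 0.00863). The call held in 18 of 19 settings and was lost without differentiated replicate 1 (adjusted p = 0.0548). Against undifferentiated replicate 3 alone the difference was -0.68 (adjusted p = 0.0473).

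Tpm1 (α-tropomyosin) read 15.22, 15.31 and 15.34 in differentiated cells, against 15.50, 15.44 and 15.39 in undifferentiated cells. The groups did not overlap, but the difference of -0.15 was small and did not pass (95% interval -0.42 to 0.12, adjusted p = 0.382). Its level lay near the top of the scale, and Tpm1 has 38 RefSeq transcripts from alternative splicing that 1 feature cannot separate. The ratio of Tpm2 to Tpm1 within an array averaged -2.69 ± 0.16 on the log2 scale in differentiated cells and -2.02 ± 0.23 in undifferentiated cells (SD, n = 3 each). That is a shift of -0.67, with no overlap. An exact 2-sided permutation test gave p = 0.1, the smallest value that 3 against 3 arrays allow, and p = 0.1 after adjustment over the 3 ratios computed. These ratios were chosen after the values had been seen.

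Lmod1 encodes leiomodin 1, which starts new actin filaments in smooth muscle. It read 7.60, 7.81 and 7.56 in differentiated cells, against 9.02, 8.39 and 7.93 in undifferentiated cells. The undifferentiated arrays were spread widely, with replicate 3 only just above the differentiated ones and 0.78 below the mean of replicates 1 and 2. Lmod1 fell by 0.79 ± 0.23 (SE), or 1.73-fold (adjusted p = 0.0379). Without replicate 3 it fell by 1.05 (adjusted p = 0.000469), but against replicate 3 alone the difference was -0.27 (adjusted p = 0.474). The call was lost without any other single array, with adjusted p of 0.14, 0.0637 and 0.121 without differentiated replicates 1, 2 and 3, and of 0.0825 and 0.108 without undifferentiated replicates 1 and 2.

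Cald1, the gene of caldesmon, which blocks myosin on actin until calcium rises, read 14.45, 14.72 and 14.51 in differentiated cells, against 14.77, 14.98 and 14.88 in undifferentiated cells. The groups were narrowly apart. The difference was -0.31 (95% interval -0.61 to -0.02, unadjusted p = 0.0395 in limma, adjusted p = 0.117), and it was the same against undifferentiated replicate 3 alone (-0.31). Of the 19 settings it passed in 1, array weights by a gene-by-gene estimate (adjusted p = 0.0102). Cald1 has 18 RefSeq transcripts that its 1 feature cannot separate. Groups that do not overlap were seen for 6 of the 9 contractile genes and for 40.1% of all named genes. Of the 6, 2 were higher and 4 lower in differentiated cells, where 22.7% and 17.4% of all named genes were.

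**Figure D2:**
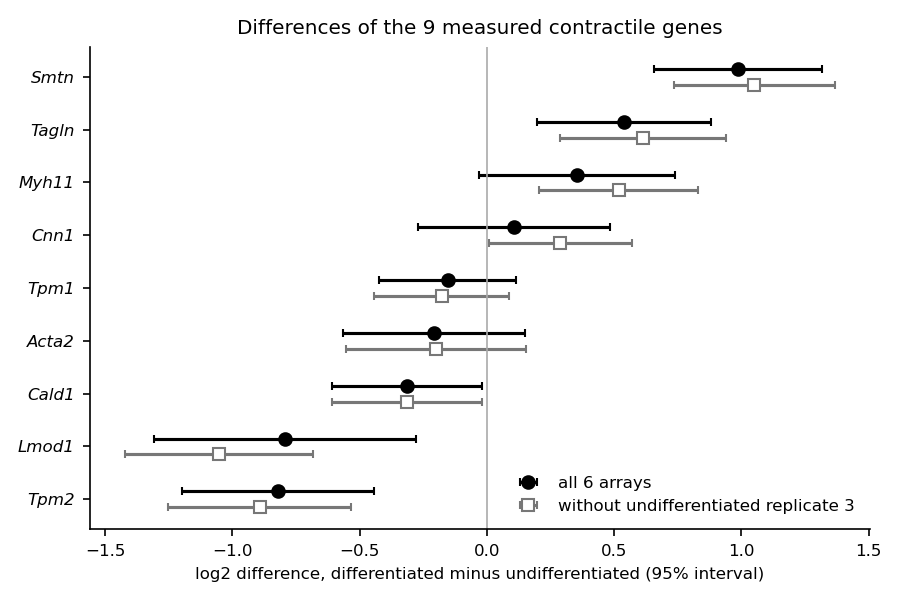
Log2 difference (x axis, differentiated minus undifferentiated) of each measured contractile gene with its 95% interval, from all 6 arrays (filled circles) and without undifferentiated replicate 3 (open squares). Smtn at 0.99 and Tpm2 at -0.82 barely move without that array, while Lmod1 goes to -1.05, Myh11 to 0.52 and Cnn1 to 0.29.

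Without undifferentiated replicate 3, 3 contractile genes were called higher (Smtn, Tagln and Myh11) and 2 lower (Tpm2 and Lmod1). The background then was far higher too, with 43.2% of named genes called, 23.6% higher and 19.6% lower. A covariate for the start of the array number leaves undifferentiated replicate 3 as the only undifferentiated array compared. Smtn then differed by 0.86, Tagln by 0.39, Tpm2 by -0.68 and Lmod1 by -0.27. Brightness also moved with the differences over the whole array. Among all named genes the median difference was 0.22 and 0.16 in the second and the third of 5 equal classes of brightness, counted from the dimmest, where Lmod1, Tagln, Cnn1, Acta2 and Myh11 lie. It was -0.08 in the brightest class, where Smtn, Tpm1, Tpm2 and Cald1 lie. The rise of Smtn and the fall of Lmod1 ran opposite to the median of their class. The fall of Tpm2 and the rise of Tagln had the same direction as theirs. The part of brightness in these differences was not tested.

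**Figure D3:**
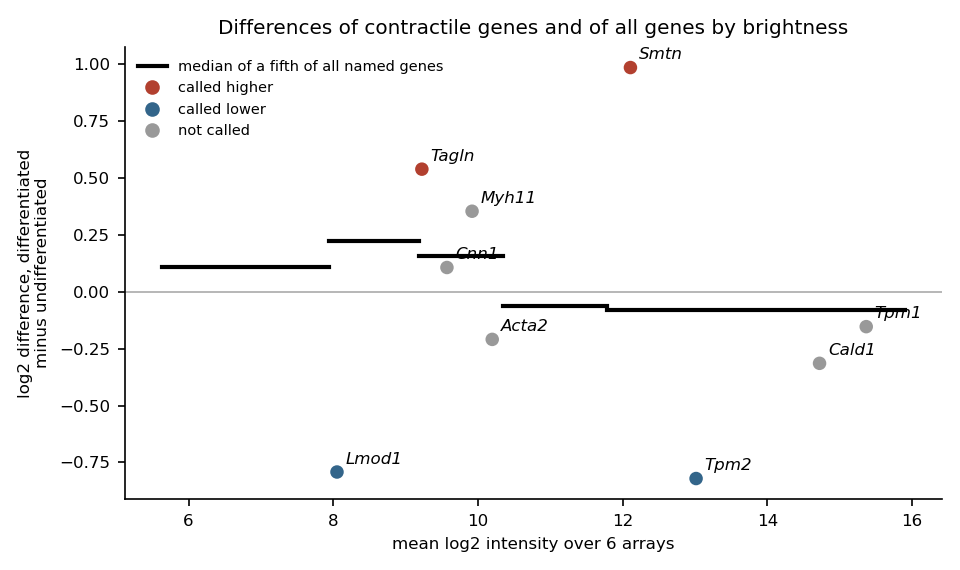
Log2 difference (y axis, differentiated minus undifferentiated) of the contractile genes against their mean log2 intensity over 6 arrays (x axis), with black lines for the median difference of 5 equal brightness classes of all named genes. Smtn lies 0.99 up where the line is at -0.08, and Lmod1 lies -0.79 down where the line is at 0.22. Tpm2 at -0.82 and Tagln at 0.54 lie on the same side of 0 as their lines.

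Close relatives of the contractile genes are other forms of the same proteins, mostly of non-muscle cells or striated muscle. Of 25 measured, 1 was called higher, 2 lower and 22 not, with a median difference of -0.01, where 8.47% of all named genes were called higher and 10.8% lower. Without undifferentiated replicate 3, 5 were called higher and 5 lower, where 23.6% and 19.6% of all named genes were. Tpm4, a non-muscle tropomyosin, fell by 0.72 on the log2 scale, with 13.55 to 13.94 in differentiated and 14.39 to 14.75 in undifferentiated cells (adjusted p = 0.0108). It passed in all settings but without differentiated replicate 1 (adjusted p = 0.0599). Tmod3, a tropomodulin that caps the slow-growing end of actin filaments, fell by 0.79 (adjusted p = 0.00352) and passed in all 19 settings. Tagln3, a transgelin of neurons, was higher by 0.60 (adjusted p = 0.0485), a call lost in 9 of 18 settings (adjusted p up to 0.425 against undifferentiated replicate 3 alone), among them without differentiated replicates 1 (0.194) and 3 (0.124) and without undifferentiated replicates 1 (0.0971) and 2 (0.19).

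Among the relatives, the ordinary cell actins Actb and Actg1 differed by -0.12 and -0.14 (adjusted p = 0.552 and 0.571). Actg2, the smooth muscle γ-actin, differed by -0.01, with a 95% interval from -0.37 to 0.35. Tpm3 differed by -0.27 (adjusted p = 0.164), and the calponins Cnn2 and Cnn3 by -0.07 and 0.06. The light chain genes Myl12a and Myl12b, the non-muscle relatives of the unmeasured Myl9, differed by -0.28 and -0.14 (adjusted p = 0.17 and 0.424). The non-muscle myosin heavy chain genes Myh9 and Myh10 differed by -0.17 and 0.06. Tagln2, the widely expressed transgelin, differed by -0.38 (adjusted p = 0.121). It was -0.55 without undifferentiated replicate 3, past the threshold (adjusted p = 0.00505), and -0.05 against that replicate alone (adjusted p = 0.902). The log2 ratio of Tagln to Tagln2 within an array averaged -3.10 ± 0.05 in differentiated and -4.02 ± 0.44 in undifferentiated cells (SD, n = 3 each). Undifferentiated replicate 3, at -3.54, lay nearer the differentiated arrays than replicates 1 and 2 did, at -4.10 and -4.41. The exact permutation p of 0.1 is the smallest that 3 against 3 arrays allow, and this ratio too was chosen after its values had been seen.

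Other genes of the smooth muscle cytoskeleton moved in both directions, with rises for the contraction kinase and an integrin. Of 19 measured, 6 were higher, 3 lower and 10 not called, with a median difference of 0.27, beside 19.3% of all named genes called in either direction. Mylk, the myosin light chain kinase that starts contraction, read 14.13, 14.09 and 13.82 in differentiated cells, against 12.93, 12.88 and 12.79 in undifferentiated cells. The groups were far apart, the rise was 2.21-fold (adjusted p = 0.000343), and it passed in all 19 settings. Mylk was read from 1 feature, which cannot separate forms of its transcript. The integrin gene Itga8, a receptor of smooth muscle and mesenchymal cells, rose 2.94-fold (adjusted p = 0.000359). Fhl1, a LIM-domain protein gene of muscle, rose 2.06-fold (adjusted p = 0.000621), and Pgm5, an adherens junction protein gene of muscle, rose 1.77-fold (adjusted p = 0.00132). These 3 passed in all 18 settings that could be run on them.

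The other rises were those of Hspb1, a small heat shock protein gene (1.61-fold, adjusted p = 0.00503), and the Z-line gene Ldb3 (1.74-fold, adjusted p = 0.0349). Ldb3 is uncertain, since another of its 3 features fell by 1.87 (adjusted p = 0.000733), and its call was lost without any single array other than undifferentiated replicate 3 (0.0576 to 0.141). The 3 genes that fell encode proteins of the membrane and of adhesion sites. They were the caveolin gene Cav1 (-0.73, adjusted p = 0.014), Lpp (-0.60, adjusted p = 0.00906) and the vinculin gene Vcl (-0.47, adjusted p = 0.0347). The call of Vcl was lost without any single array other than undifferentiated replicate 3 (adjusted p from 0.0568 to 0.133). That of Cav1 was lost without differentiated replicate 1 (0.0695) or undifferentiated replicate 2 (0.0694), and that of Lpp without differentiated replicate 3 (0.0585) or undifferentiated replicate 2 (0.0507). Hspb1, Cav1, Lpp and Vcl were named after their values were seen.

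Regulators of light chain phosphorylation, the switch of contraction, gave 2 genes higher, 1 lower and 17 not called of 20 measured, with a median difference of -0.04. These shares are near those of all named genes, 8.47% higher and 10.8% lower. Besides Mylk, Pde5a, the phosphodiesterase that breaks down the relaxing messenger cGMP, rose 1.60-fold (adjusted p = 0.00838). Its call was lost only with a covariate for the array number start (adjusted p = 0.0688). Rock1, a kinase that keeps the light chain phosphorylated by inhibiting its phosphatase, fell 1.96-fold, with 10.98, 11.22 and 11.00 in differentiated cells against 11.89, 11.91 and 12.31 in undifferentiated cells (adjusted p = 0.00188). The groups did not overlap, and Rock1 passed in all 19 settings.

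**Figure D4:**
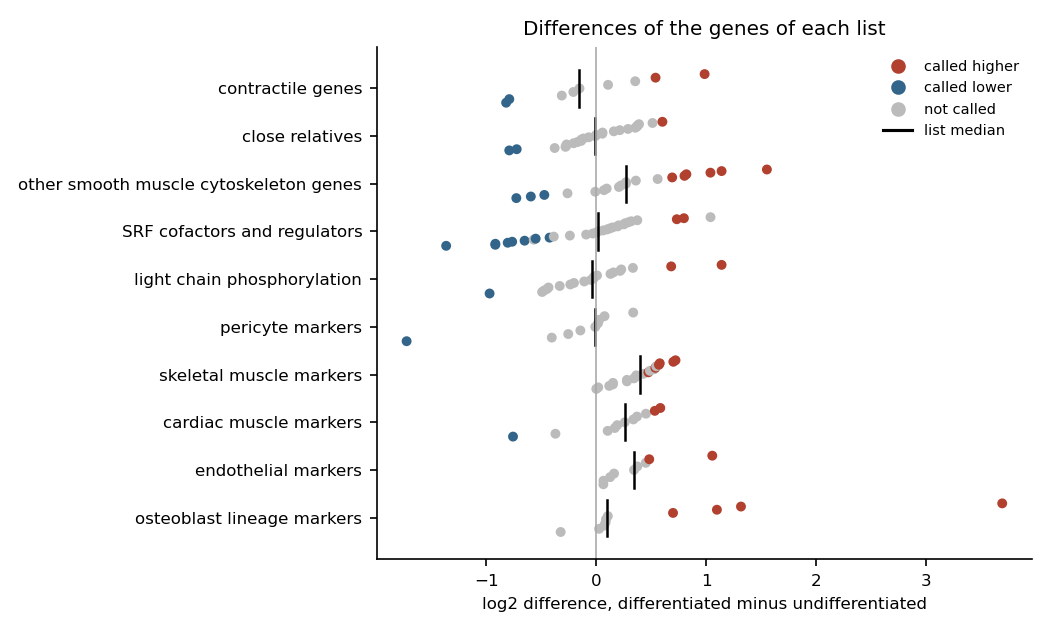
Log2 difference (x axis, differentiated minus undifferentiated) of every measured gene of the contractile genes and of 9 other lists (rows), coloured by call, with each list's median as a black line. The contractile genes spread to both sides of 0, 8 of the 10 called SRF cofactors and regulators lie to the left, and the 6 called skeletal muscle markers lie to the right.

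Among 29 measured SRF cofactors and other regulators of the smooth muscle programme, 2 were called higher, 8 lower and 19 not, where 8.47% of all named genes were called higher and 10.8% lower. Over all 6 arrays the list as a whole did not lean lower, with 16 positive and 13 negative differences and a median of 0.02. Without undifferentiated replicate 3 its median was -0.17, beside 0.07 for all named genes. Then 5 genes of the list were called higher and 10 lower, where 23.6% and 19.6% of all named genes were. Srf itself read 10.64, 10.92 and 10.66 in differentiated cells, against 11.59, 11.53 and 10.81 in undifferentiated cells. Undifferentiated replicate 3 lay with the differentiated arrays, and the difference of -0.57 did not pass (adjusted p = 0.0693). It was -0.82 without replicate 3 (adjusted p = 0.000479) and -0.07 against it alone (adjusted p = 0.835). Mrtfa, the gene of MRTF-A, fell by 0.77 (adjusted p = 0.0281), with the same split, since the difference was -1.03 without replicate 3 and -0.24 against it alone (adjusted p = 0.404). Its call was lost without any other single array (adjusted p from 0.068 to 0.121). Mrtfb differed by 0.00 (95% interval -0.36 to 0.36), and Myocd, the myocardin gene, by 0.25 (adjusted p = 0.189) at 7.91 to 8.39 on the 6 arrays.

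Yap1 and Tead1 were lower on every differentiated array. Yap1 read 12.23, 12.56 and 12.29 in differentiated cells, against 13.23, 13.29 and 13.30 in undifferentiated cells, a 1.89-fold fall (adjusted p = 0.00125). Tead1 fell 1.89-fold (adjusted p = 0.00293), and Elk3, an ETS partner of SRF, fell 2.58-fold (adjusted p = 0.00759). These 3 passed in all 19 settings. Tead4 fell 1.75-fold (adjusted p = 0.0411), but only by 0.22 on the log2 scale against undifferentiated replicate 3 (adjusted p = 0.56), and its call was lost without any other single array (0.102 to 0.129). Tgfb2, a ligand of the pathway that induces Acta2 in many cells, rose 1.74-fold (adjusted p = 0.00659) and passed in all 19 settings. The other higher gene was Klf5, a zinc finger factor gene, named after its value was seen, which rose 1.66-fold (adjusted p = 0.00457) and also passed in all 19. Smad2 and Smad3, of the same pathway as Tgfb2, fell by 0.65 and 0.43 (limma adjusted p = 0.00686 and 0.0406). Wwtr1, the TAZ gene, fell by 0.55 (limma adjusted p = 0.0309). Smad2 passed in all 19 settings, Smad3 in 9 and Wwtr1 in 11. Smad2, Smad3 and Wwtr1 too were named after their values were seen. Tgfb1 read 10.60, 10.55 and 10.44 in differentiated cells, against 10.20, 9.90 and 8.37 in undifferentiated cells. Its difference of 1.04 did not pass (adjusted p = 0.0705), and it was 0.48 without replicate 3 (adjusted p = 0.0124).

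Markers of other cell types were set beside these genes. Of 9 pericyte markers none was called higher and 1 lower, where 8.47% and 10.8% of all named genes were. Without undifferentiated replicate 3 none was called higher and 2 lower, where 23.6% and 19.6% of all named genes were. Pdgfrb, a receptor gene on that list, differed by -0.01 over all 6 arrays (limma adjusted p = 0.982). That value joins opposite ones, since Pdgfrb differed by -0.34 without undifferentiated replicate 3 (adjusted p = 0.0484) and by 0.66 against that replicate alone (adjusted p = 0.0171). The marker called lower over all 6 arrays was Abcc9, a potassium channel subunit, at -1.73 (limma adjusted p = 6.34e-05). Of 20 skeletal muscle markers, 6 were called higher and none lower, where 8.47% of all named genes were called higher and 10.8% lower. All 20 differences lay above 0, among them Acta1 at 0.00 and Myl1 at 0.02, and Myl1 did not exceed the control on any of the 6 arrays. Their median difference was 0.40, beside 0.11, 0.22 and 0.16 for all named genes in the 3 dimmest brightness classes, where most of them lie. In the next brighter class, where Ckm, Tnnc2 and Mb lie, the median of all named genes was -0.06. The part of brightness was not tested. The summed intensity of the 20 markers was 13342 to 15884 in differentiated cells and 9375 to 12665 in undifferentiated cells. The fast troponin genes Tnni2 and Tnnc2 rose 1.65-fold and 1.63-fold (adjusted p = 0.0331 and 0.0305), and the creatine kinase gene Ckm rose 1.49-fold (adjusted p = 0.0316). These 3 calls were each lost without differentiated replicate 1 (adjusted p = 0.13 to 0.141) or 3 (0.0914 to 0.1) and without undifferentiated replicate 1 (0.0819 to 0.0927) or 2 (0.123 to 0.135). Tnni2 and Ckm were also lost without differentiated replicate 2 (0.064 and 0.065), and none was lost without undifferentiated replicate 3. Tnnt3 and Actn3 rose 1.49-fold and 1.45-fold (limma adjusted p = 0.0241 and 0.0464). Tnnt3 passed in 14 of 19 settings and Actn3 in 8 of 18. Undifferentiated replicate 3 lay above replicates 1 and 2 on this list by a median of 0.32. Against replicate 3 alone the 6 called genes differed by less, from 0.20 for Ttn to 0.45 for Tnnt3. In place of 6 calls there were 13 without replicate 3. Without replicate 3, 23.6% of all named genes were called higher. The part of the skeletal muscle markers in the rises of Tagln and Smtn was not tested. Myod1, which defines the lineage, differed by 0.15 (limma adjusted p = 0.49) at 7.13 to 7.63. The random-probe control read 6.59 to 6.81 on the same scale.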

How the data were processed

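RNA of 6 MC3T3-E1 cultures, 3 differentiated and 3 undifferentiated per the sample titles, was hybridized to single-colour (Cy3) NimbleGen arrays, 1 array each. Per the submitters' processing notes, the authors ran RMA, and they deposited a linear intensity for each feature. The sources used here do not give its version, the genome build or the annotation. A second deposited table, of the whole series, had the same intensity values (largest difference 0), and its columns of other series numbered 0. Log2 was taken of the deposited values, with no further normalization. The random-probe control was not tested.

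Features were named by RefSeq transcript, without versions, through a RefSeq gene table (GRCm38.p6) used for names. This named 17849 features (41.9%) of 17298 genes, and 24737 had no name. A gene with several features was read from its brightest. Differences are differentiated minus undifferentiated, fitted with limma 3.58.1 (lmFit, eBayes) in R 4.3.3. P-values are 2-sided, were adjusted by Benjamini-Hochberg across the 42586 features, and gave a call at an adjusted p under 0.05. The fit was also run on simulated data with independent noise and no split by array number start. That run cannot show how the fit handles undifferentiated replicate 3. Precision is limited by 3 arrays per group.

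The contractile genes and the 9 other lists were chosen with earlier results of these data known. The rule for named genes takes all contractile genes, 18 fixed regulators and relatives, the called genes of each list up to 5 by size, and the 5 genes most like Acta2. Genes outside it were named after their values were seen. Alternatives were quantile normalization, equal medians, cyclic loess, 2 filters on dim features, a replicate block, a covariate for the array number start, array weights, an intensity trend, a fit over named genes, the mean of a gene's features, the table of the whole series, and leaving out each array. Array weights used limma's default estimate, which stopped before convergence. Weights by its gene-by-gene estimate were added after that had been seen, and also count as a setting. The settings share their data, and the table of the whole series repeats the main fit, so a count of settings passed is a description only.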

Additional observations from a re-analysis of the deposited data

How the results depend on the processing

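Of 168 differences of contractile genes under alternative settings, 149 kept their direction and their side of the threshold, 15 lost a call, 3 gained one and 1 turned direction, which was Cnn1 at -0.26 with a covariate for the array number start. By construction that setting compares the differentiated arrays with undifferentiated replicate 3. Part of the 168 could not turn direction. The table of the whole series repeats the main fit, and each contractile gene has 1 feature, so the mean of features repeats its difference. The replicate block, the intensity trend, the fit over named genes and the filters also leave the difference as it is, and can move only its p-value. The count of contractile genes called higher was 1 under quantile normalization, cyclic loess, array weights, the filter to features brighter than the median and the array number start, and 1 to 3 when an array was left out. The count called lower was 1 under that filter and the array number start, and 0 to 2 when an array was left out. The filter leaves Tagln, Lmod1 and Cnn1 untested. Array weights depended on how they were estimated. The default estimate stopped before convergence, gave undifferentiated replicate 2 a weight of 0.272 and called 3561 named genes and 8749 features. The gene-by-gene estimate, added after seeing this, gave that array 3.47 and called 8697 named genes and 21748 features, with Myh11 (0.37, adjusted p = 0.0135) and Cald1 (-0.36, adjusted p = 0.0102) among them. With the deposited values 3341 named genes and 8365 features were called. These counts were 2180 and 5252 under the brightness filter, and ran from 1373 to 7471 and from 3371 to 18691 when an array was left out. The cause of the changes in count was not tested. Of the called named genes, 34.1% were higher with equal array medians and 57.7% with gene-by-gene weights, against 43.9% with the deposited values. In the fit with the replicate number as a block, 3507 named genes were called, and 2 contractile genes were higher and 2 lower. Deviations of same-numbered arrays correlated at 0.01, 0.211 and 0.059, and not every array correlated best with its own number, so the numbers were not taken to pair the arrays. All 9 genes lay above the control feature on all 6 arrays, and the number of arrays limits the precision.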

Other observations

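Some genes around the contractile apparatus had features for more than 1 transcript, and these did not always move together. Prkg1, the cGMP-dependent kinase that relaxes smooth muscle, differed by -0.44 on its brightest feature (adjusted p = 0.0818), and its other feature fell by 1.62 (adjusted p = 0.00417 in limma). For Abcc9, 2 of 3 features had differences of -1.73 and -2.04, past the threshold (adjusted p = 6.34e-05 and 3.96e-06), and the other differed by -0.09 (adjusted p = 0.631). Ldb3 had features at 0.80, 0.62 and -1.87, each past the threshold (adjusted p = 0.0349, 0.0248 and 0.000733), so its features passed in opposite directions.

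Of 11 cardiac muscle markers, 2 were called higher and 1 lower, where 8.47% of all named genes were called higher and 10.8% lower. Without undifferentiated replicate 3, 5 were higher and 2 lower, where 23.6% and 19.6% of all named genes were. The natriuretic peptide gene Nppb, induced by stretch in the heart, fell by 0.76 (adjusted p = 0.00598) and passed in all 18 settings run on it. The light chain gene Myl2 rose by 0.58 (adjusted p = 0.0259) and the heavy chain gene Myh6 by 0.53 (adjusted p = 0.0444), and both calls were lost with a covariate for the array number start (adjusted p = 0.127 and 0.435). The Myh6 call was also lost without any single array other than undifferentiated replicate 3 (0.0988 to 0.143), and that of Myl2 without differentiated replicate 1 (0.118) or 2 (0.0713) or undifferentiated replicate 1 (0.076) or 2 (0.0719). Of 9 endothelial markers, 2 were called higher and none lower beside the same background. Without undifferentiated replicate 3, 5 were called higher, where 23.6% of all named genes were. Tek, an angiopoietin receptor gene, rose by 1.06 (adjusted p = 0.00337) and passed in all 18 settings run on it, and Esam rose by 0.48 (adjusted p = 0.0274), a call lost without any differentiated replicate (0.0806, 0.0528 and 0.131 without replicates 1, 2 and 3) and without undifferentiated replicate 2 (0.106). Cdh5, which defines endothelial cells, did not exceed the random-probe control on any of the 6 arrays. Of 10 osteoblast markers, 4 were called higher and none lower, both with all arrays and without undifferentiated replicate 3, and Sp7, the osterix gene, rose by 0.70 (adjusted p = 0.0169), a call lost without differentiated replicate 1 (0.0536) or 2 (0.0673).

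The genes with the profile nearest to that of Acta2 over the 6 arrays were Rcbtb2, Zfp27, Rnf170, Ice2 and Pex3, by the root mean square difference of profiles centred on each gene's mean. That difference was 0.0561 to 0.0714 on the log2 scale. None of the 5 was called, with differences from -0.23 to -0.11, and the likeness is a description over 6 arrays that share their normalization.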
